A study of Nasonia vitripennis with 23 samples.

Results

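Expression of 8 genes that act in mitosis and the cell cycle (cycB, Cdk1, fzy, Plk4, Bora, Melk, Cenp-a and E2f8) was examined in the heads of adult females of the parasitoid wasp Nasonia vitripennis. They were taken by symbol and each symbol occurred once, so that they make up 8 of the 14131 genes in the count table, of which 13599 had at least 1 read in the 22 libraries tested. The study asked whether a female's gene expression changes with the number of other females, called co-foundresses, that lay eggs beside her. Single-foundress females were alone on the hosts, five-foundress females shared them with 4 co-foundresses and 10-foundress females with 9. All focal females were of the AsymC strain, which was cured of the bacterium Wolbachia and is kept as a laboratory stock, and all co-foundresses were of the red-eye mutant STDR strain, so that eye colour told them apart. Females had 3 hosts and 3 h to lay eggs before their heads were removed, and each library was made from polyA RNA of 12 pooled heads, with 8 single-foundress, 7 five-foundress and 8 10-foundress pools.

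A cell enters mitosis when cyclin B, the product of cycB, binds and activates the kinase Cdk1, and it leaves mitosis when the anaphase-promoting complex, switched on by fzy (the fly name for Cdc20), marks cyclin B for destruction. Kinases such as Plk4 govern the duplication of centrioles, and a histone variant, Cenp-a, marks the centromere on which the chromosome segregates. Most neurons of an adult insect brain no longer divide, whereas the ovary and early embryo hold dividing cells and stored transcripts of many of these genes.

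Single-foundress replicate 2 stood apart from the other libraries and was removed by the study as an outlier, so levels and tests below rest on the other 22 libraries (7 single-, 7 five- and 8 10-foundress) and replicate 2 is described by itself. The study reports that its RNA was of similar quality but that it had the lowest share of mapped reads. For this the study proposes an anomaly in sequencing, which was not tested here. Total counts were 52427768 in replicate 2 and 25194329 to 69696501 in the 22 others. Of 17 head genes, 13 had a median of at least 1 CPM (counts scaled to a common library size) in the 22 libraries and 4 were below it (the receptor subunits nAChRa9 and nAChRb3 and the odorant binding proteins OBP19 and OBP67). The most abundant were Lop1, a long wavelength opsin of the eye (6975 CPM in replicate 2 and 5530 to 11911 CPM in the others), and Syt1, a synaptic vesicle protein (218 CPM in replicate 2 and 212 to 325 CPM in the others).

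All 8 genes were detected, with at least 1 read in each of the 22 libraries, as were 84.1% of the 13599 genes. They fell into a group of 6 (fzy, Plk4, Bora, Melk, Cenp-a and E2f8) whose median was at least 1 CPM, the level of 74.3% of genes, and a pair, cycB and Cdk1, below it. CPM were scaled by library composition, with no correction for gene length, so they compare one gene across libraries and not one gene with another. In pooled heads, fewer cells that express a gene and less of its RNA in each cell cannot be told apart.

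The mitotic cyclin was close to the limit of detection. In the 7 single-foundress libraries cycB had a lowest, median and highest count of 1, 5 and 51, in the 7 five-foundress libraries of 1, 4 and 69, and in the 8 10-foundress libraries of 1, 4 and 28. Only 7 of the 22 libraries held at least 10 reads of it. In CPM the lowest, median and highest values were 0.0330, 0.152 and 1.30 in single-foundress, 0.0399, 0.105 and 1.63 in five-foundress, and 0.0340, 0.128 and 0.597 in 10-foundress pools. The 3 groups overlapped, and each had a single high library: single-foundress replicate 3, five-foundress replicate 10 and 10-foundress replicate 18.

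Its partner kinase was low but steadier. Cdk1 had 9, 20 and 46 counts (lowest, median and highest) in single-foundress, 16, 37 and 39 in five-foundress, and 19, 23 and 48 in 10-foundress libraries. This corresponded to 0.274, 0.740 and 0.991 CPM in single-foundress, 0.586, 0.811 and 1.04 CPM in five-foundress, and 0.530, 0.730 and 1.02 CPM in 10-foundress pools. The lowest value belonged to single-foundress replicate 1, and the groups overlapped. The coefficient of variation over the 22 libraries was 26.6% for Cdk1 and 145% for cycB, so the 2 partners of the mitotic kinase varied unequally at low depth.

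The activator of the anaphase-promoting complex, fzy, varied most among the 6 genes with a median of at least 1 CPM. Its lowest, median and highest levels were 2.20, 4.33 and 13.5 CPM in single-foundress, 2.74, 5.63 and 10.6 CPM in five-foundress, and 3.07, 5.12 and 20.3 CPM in 10-foundress pools. Single-foundress replicate 1 and 10-foundress replicate 17 held the high values, and these were based on 444 and 600 reads, so they were not a matter of few counts. The coefficient of variation of fzy was 64.3%, at percentile 97.4 of the 10099 genes with a median of at least 1 CPM, for which the median coefficient was 21.4% and the middle 50% of genes lay between 14.7% and 31.4%.

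The 3 kinases and kinase activators were detected in every pool at modest variation. Plk4, the kinase that starts centriole duplication, had a lowest, median and highest level of 3.89, 5.23 and 5.91 CPM in single-foundress, 3.73, 5.17 and 5.39 CPM in five-foundress, and 2.90, 4.23 and 6.13 CPM in 10-foundress pools. Bora, known in flies as an activator of the mitotic kinase Aurora A, had 2.04, 2.81 and 3.83 CPM in single-foundress, 2.43, 3.01 and 4.39 CPM in five-foundress, and 2.17, 3.91 and 4.88 CPM in 10-foundress pools. Melk, a kinase named in mammals for its expression in eggs and early embryos, had 7.56, 8.53 and 10.0 CPM in single-foundress, 6.83, 7.07 and 9.49 CPM in five-foundress, and 5.55, 6.86 and 9.89 CPM in 10-foundress pools. Their coefficients of variation were 17.7% for Plk4, 24.7% for Bora and 15.9% for Melk. For each of them the 3 groups overlapped, with the 10-foundress pools spanning the widest range in Plk4, Bora and Melk.

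The centromeric histone Cenp-a had a lowest, median and highest level of 1.8, 3.26 and 4.77 CPM in single-foundress, 1.60, 2.31 and 4.15 CPM in five-foundress, and 1.35, 2.1 and 4.14 CPM in 10-foundress pools. E2f8, which in mammals encodes a repressor of genes of the E2F cell cycle programme, had 8.93, 12.1 and 15.3 CPM in single-foundress, 11.7, 12.7 and 14.0 CPM in five-foundress, and 8.47, 14.1 and 17.7 CPM in 10-foundress pools. Group medians of Cenp-a were ordered single-, five-, 10-foundress from high to low and those of E2f8 in the reverse order, but neighbours in either order overlapped. The coefficient of variation was 38.6% for Cenp-a and 17.4% for E2f8.

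**Figure D1:**
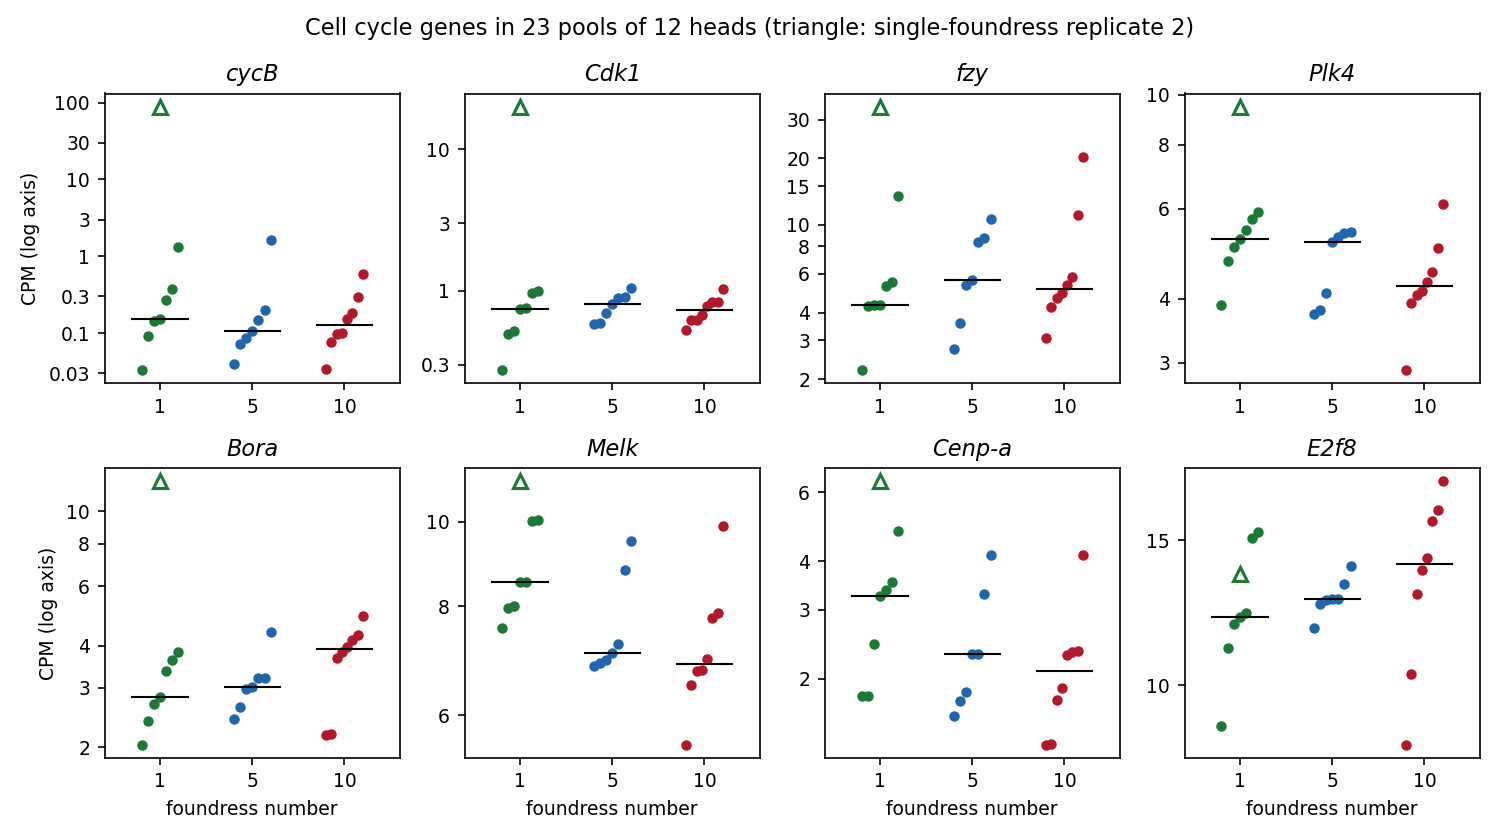
Level of each gene in CPM (log axis, its own scale in each panel) by foundress number; circles are single pools, lines are medians of the 22 libraries by group, and the triangle is single-foundress replicate 2, which is not in the medians. The triangle lies far above the circles for cycB and Cdk1 (88.6 and 20.0 CPM) and within them for E2f8 (13.6 CPM), and the circles of the 3 groups overlap in every panel.

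Single-foundress replicate 2 was the highest of the 23 libraries for 7 of the 8 genes, by very unequal amounts. These values were known when the genes were chosen and are given as a description, for 1 library without a replicate. Replicate 2 held 4865 reads of cycB, 95.1% of its reads in all 23 libraries, and 1099 reads of Cdk1, 64.2% of its reads. In CPM, cycB stood at 88.6 in replicate 2, with 0.0330 to 1.63 in the other 22, and Cdk1 at 20.0, with 0.274 to 1.04 in the others. The level in replicate 2 was 54.4 times the highest other library for cycB (95% counting interval 42.9 to 70.0) and 19.3 times for Cdk1 (13.1 to 29.7). The intervals cover counting error only.

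Reads of cycB thus lay almost only in replicate 2, and those of Cdk1 mostly there, although both were detected in every library. For 5 others the excess was smaller. Bora was at 12.3 CPM in replicate 2 and 2.04 to 4.88 CPM in the others, a ratio to the highest of 2.51 (2.15 to 2.95). fzy was at 34.3 CPM, and its ratio to the highest other library, 10-foundress replicate 17, was 1.69 (1.54 to 1.85), while Plk4 (9.49 CPM) had a ratio of 1.55 (1.30 to 1.84). Cenp-a was at 6.41 CPM with a ratio of 1.34 (1.10 to 1.65), and Melk at 11.1 CPM with a ratio of 1.11 (0.957 to 1.28), which counting error does not separate from the highest other library. E2f8, at 13.6 CPM, ranked 9 of 23 and was 0.771 times the highest library (0.698 to 0.852).

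Across all genes with reads, 9.83% (1338 of 13613) were highest in replicate 2, compared with 7 of these 8 genes, and 3.39% exceeded the highest other library by more than 2 times, as did 3 of the 8, cycB, Cdk1 and Bora. A level of at least 1 CPM and over 20 times the highest other library was seen for 0.764% of genes and for 1 of the 8, cycB, with Cdk1 (19.3) just under that level and Bora (2.51) the next below it. The 8 genes were picked with this pattern known, so these counts are not independent evidence of it.

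**Figure D2:**
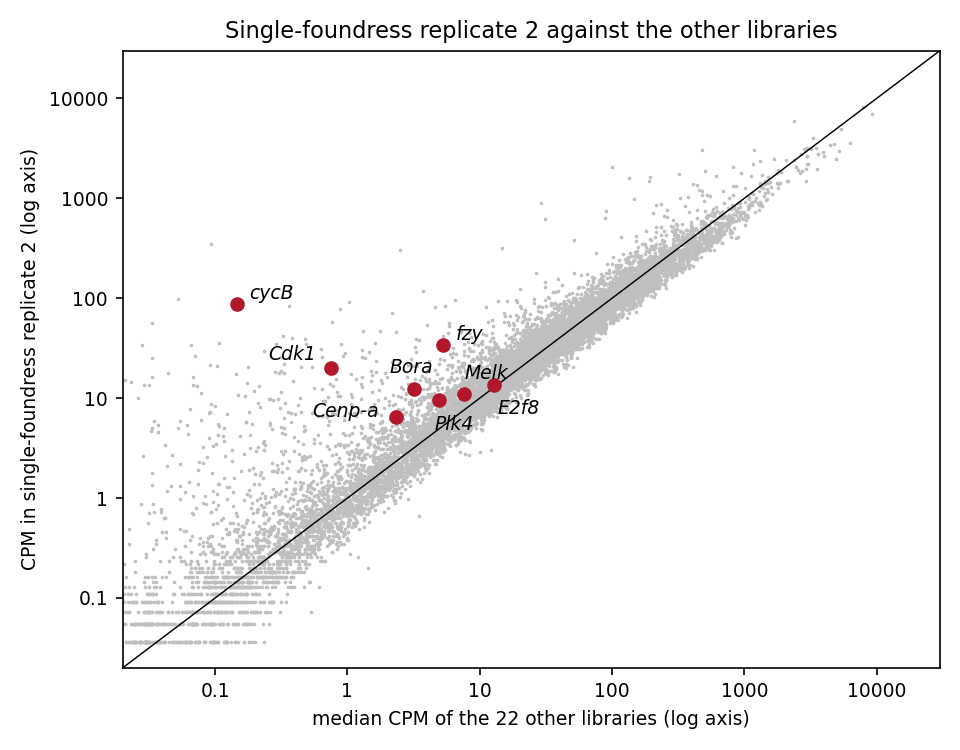
CPM of genes in single-foundress replicate 2 against their median CPM in the 22 other libraries (both log axes). Grey points are single genes, the line marks equal levels and the 8 genes are named. Genes without reads in replicate 2 or in most of the other libraries, or beyond the axis limits, are not drawn. cycB stands at 604 times its median in the other libraries, Cdk1 at 26.7, fzy at 6.46, Bora at 3.84, Cenp-a at 2.77 and E2f8 at 1.07 times.

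Other genes of the same processes, matched by symbol from lists of textbook genes, had ratios below those of cycB and Cdk1 but in the range of the rest of the 8. Of 5 further cell cycle genes, all 5 were highest in replicate 2, compared with 9.83% of all genes. Cdk4, a kinase of the first gap phase, stood at 2.59 times the highest other library and its cyclin cycD at 1.36. The condensin subunit Smc2 was at 1.13 and the cohesin subunit Smc3 at 1.08. For the S-phase kinase Cdk2, at 1.06 (0.936 to 1.21), counting error does not separate replicate 2 from the highest other library. The summed level of the 5 was 105 CPM in replicate 2 and 58.7 to 85.2 CPM in the others. Of 14 genes of replication, repair and Cdks outside the mitotic cycle, 8 were highest in replicate 2 and the other 6 were below the highest other library. The 8 were led by the helicase recQ1 at 1.36 times and the maintenance DNA methyltransferase Dnmt1a at 1.31. Among them, counting error does not separate Smc1a (1.00, 0.954 to 1.06) and Ku80 (1.03, 0.916 to 1.17) from the highest other library.

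Markers of other tissues were compared in the same library. Both germ line genes that the symbol lists held were highest in replicate 2: nanos, a translational repressor of germ cells, at 21.6 CPM there and 0.0369 to 0.255 CPM in the others (84.7 times the highest, 45.9 to 177), and oskar, which organises germ plasm, at 43.1 CPM and 8.20 to 16.2 CPM in the others (2.66 times). Their summed level was 64.8 CPM in replicate 2, 10.2 to 16.4 CPM in the other single-foundress, 8.29 to 13.9 CPM in five-foundress and 8.28 to 14.3 CPM in 10-foundress libraries, and neither was at 0 in any library. The summed level of 17 head genes was 7662 CPM in replicate 2, 7949 to 12652 CPM in the other single-foundress, 6769 to 12762 CPM in five-foundress and 6263 to 12918 CPM in 10-foundress libraries, and most of this sum was Lop1. Of the 17, 2 were highest in replicate 2, both nicotinic receptor subunits under 1 CPM, and 3 were lowest there, the subunits nAChRa8 (96.6 CPM in replicate 2 and 100.9 to 260.6 CPM in the others), nAChRa11 (72.3 CPM and 78.1 to 175 CPM) and nAChRa12 (20.2 CPM and 22.5 to 36.2 CPM). Most other head genes with a median of at least 1 CPM also ranked low in replicate 2. Of 23 libraries, nAChRa5 ranked 22, Syt1, nAChRa1 and nAChRa10 ranked 21, and Lop1 and nAChRa2 ranked 19. The rest ranked higher, with nAChRb1 at 14, OBP77 at 13, nAChRa3 at 5 and nAChRa4 at 4. The gene pros (10.9 CPM in replicate 2 and 3.57 to 13.1 CPM in the others) and summed fat body (11.2 CPM) and haemocyte genes (43.3 CPM) were within the range of the other libraries in replicate 2. Within these sums the genes differed. Of the fat body genes, Hex83 was lowest in replicate 2 (2.02 CPM and 2.13 to 7.38 CPM in the others), Hex109 ranked 21 of 23 and Hex70b 10. Of the haemocyte genes, ppo1 ranked 4 of 23 and ppo3 22. The part of these markers in the levels of the 8 genes was not tested.

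**Figure D3:**
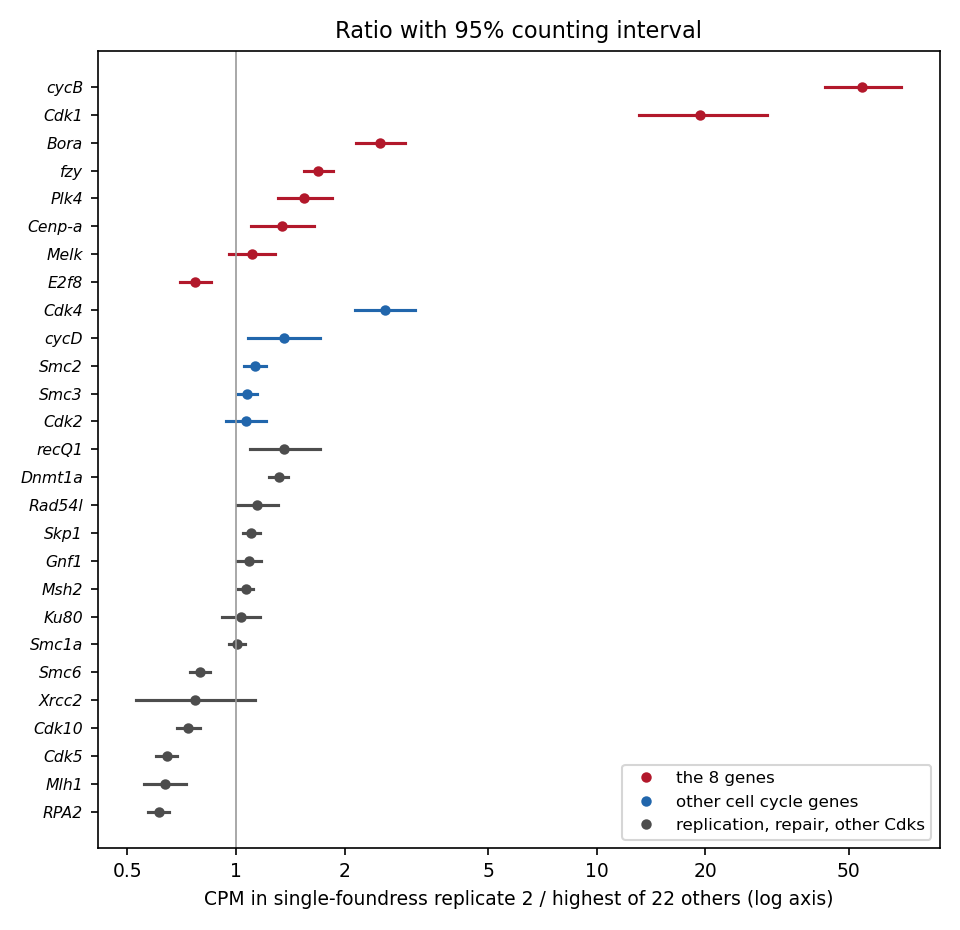
Ratio of CPM in single-foundress replicate 2 to the highest of the 22 other libraries (log axis) with 95% counting intervals, for the 8 genes, 5 other cell cycle genes and 14 genes of replication, repair and other Cdks; the line marks equality. cycB (54.4) and Cdk1 (19.3) stand apart from the other genes shown, whose ratios reach at most 2.59 (Cdk4).

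Foundress number was then tested in the 22 libraries. In none of the comparisons did any of the 8 genes pass an adjusted p of 0.05 by edgeR's quasi-likelihood test with Benjamini-Hochberg adjustment, and none of all 13599 genes did (0%). By DESeq2 and by limma, too, 0 of the 8 passed; of all genes in the pairwise comparisons DESeq2 called 0, and limma 3, all in 10- versus single-foundress pools. For 0 of the 8 were 2 groups free of overlap in CPM, compared with 0.00735% of all genes in 10- versus single-foundress, 0.0221% in five- versus single-foundress and 0.00735% in 10- versus five-foundress pools. These p-values measure only the spread between these pools. In the overall test of foundress number the adjusted p was 0.994 for each of the 8 genes, and 0 of 8 had an unadjusted p under 0.05, compared with 1.96% of all genes.

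In 10- versus single-foundress pools, Bora averaged 3.65 ± 0.977 CPM in 10-foundress and 2.96 ± 0.662 CPM in single-foundress pools (SD, n = 8 and 7), a log2 fold change of 0.31 (95% interval -0.07 to 0.69). Melk averaged 7.25 ± 1.29 CPM in 10-foundress and 8.66 ± 0.994 CPM in single-foundress pools, a log2 fold change of -0.25 (-0.49 to -0.00046), and Plk4 averaged 4.38 ± 0.930 CPM in 10-foundress and 5.14 ± 0.678 CPM in single-foundress pools, a log2 fold change of -0.22 (-0.52 to 0.07). Melk was the 1 gene of the 8 with an unadjusted p under 0.05 (0.0496, adjusted p = 0.952 by edgeR), compared with 3.18% of all genes. The intervals of the other genes contained no change: -2.34 to 0.82 for cycB, -0.34 to 0.60 for Cdk1, -0.42 to 1.23 for fzy, -0.97 to 0.11 for Cenp-a and -0.13 to 0.44 for E2f8. A log2 fold change of -2 for cycB, or of 1 for fzy, lay within these intervals.

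In five- versus single-foundress pools, 0 of 8 had an unadjusted p under 0.05 (1.76% of all genes). The log2 fold changes ran from -0.27 for Cenp-a (-0.83 to 0.28) to 0.20 for fzy (-0.65 to 1.05), with -0.18 for Melk (-0.44 to 0.07), -0.13 for Plk4, -0.09 for cycB, 0.05 for E2f8, 0.08 for Bora and 0.19 for Cdk1. The means of Melk were 7.61 ± 1.08 CPM in five-foundress and 8.66 ± 0.994 CPM in single-foundress pools (SD, n = 7 each), and the groups overlapped.

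In 10- versus five-foundress pools, 0 of 8 had an unadjusted p under 0.05 (1.81% of all genes). Bora averaged 3.65 ± 0.977 CPM in 10-foundress and 3.12 ± 0.631 CPM in five-foundress pools (SD, n = 8 and 7), a log2 fold change of 0.23 (-0.15 to 0.61). The others lay between -0.67 for cycB (-2.24 to 0.89) and 0.20 for fzy (-0.62 to 1.02), with -0.16 for Cenp-a, -0.10 for Plk4, -0.06 for Melk and for Cdk1, and 0.11 for E2f8. The median log2 fold change of the 8 genes was -0.04 in 10- versus single-foundress, -0.02 in five- versus single-foundress and -0.06 in 10- versus five-foundress pools, compared with 0.01, 0.00 and 0.01 over all genes. The genes went both ways, and the median absolute log2 fold change was 0.28 for the 8 and 0.14 for all genes in 10- versus single-foundress, 0.16 and 0.12 in five- versus single-foundress, and 0.13 and 0.11 in 10- versus five-foundress pools. Comparisons that share a group are not independent of each other.

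**Figure D4:**
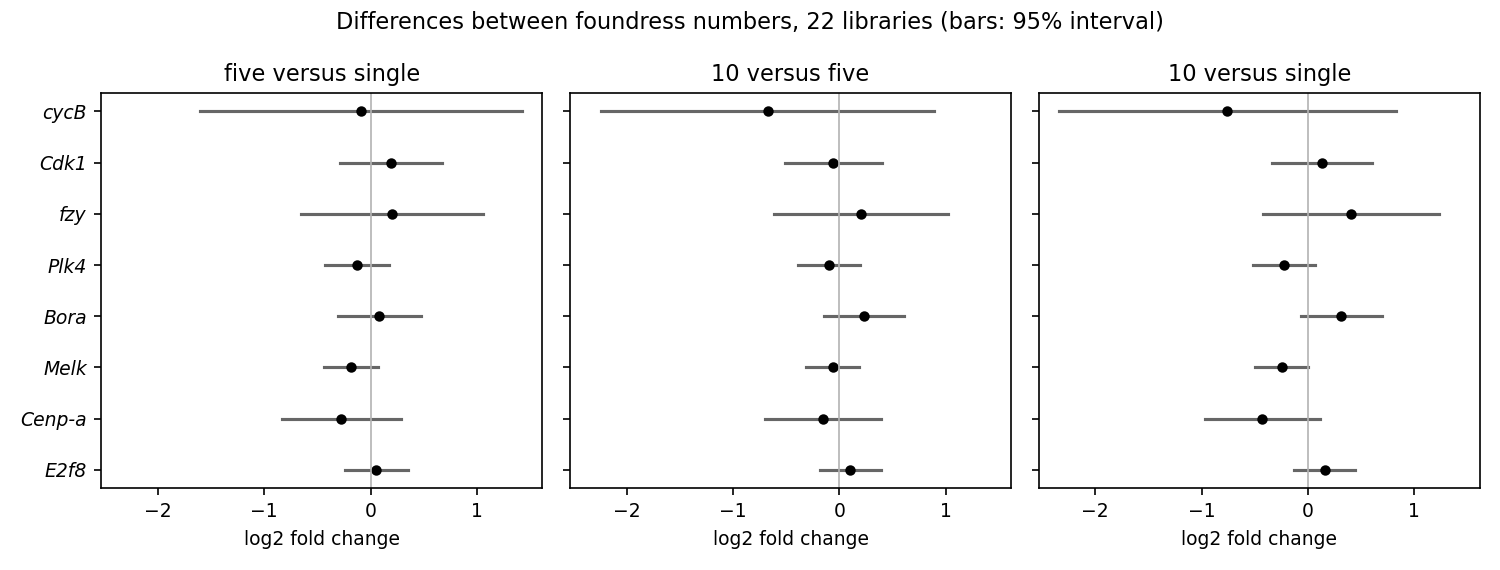
Log2 fold change of each gene in the 3 comparisons of foundress number (points, with 95% intervals from the edgeR fit over 22 libraries). The interval includes 0 for all genes except Melk in 10- versus single-foundress pools, whose bound was -0.00046, and it is widest for cycB (-2.34 to 0.82).

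Among the 19 other cell cycle, replication and repair genes, 0 passed an adjusted p of 0.05 in any comparison. In 10- versus single-foundress pools 1 of the 19 had an unadjusted p under 0.05 by edgeR, compared with 3.18% of all genes. This was Smc3, with 38.7 ± 2.53 CPM in 10-foundress and 35.3 ± 2.67 CPM in single-foundress pools (log2 fold change 0.15, SE 0.07, adjusted p = 0.952 by edgeR). In five- versus single-foundress pools 0 did (1.76% of all genes), and in 10- versus five-foundress pools 0 did (1.81%).

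With replicate 2 included, the edgeR fit of 23 libraries called 39 genes in 10- versus single-foundress pools (0.286% of 13613), none of them among the 8, and 77 in the overall test (0.566%), 1 of them cycB (edgeR adjusted p = 0.0369). The study, which used DESeq2, reports that removing this library did not change its number of differentially expressed genes. DESeq2 was not run on all 23 libraries here, so the counts differ in tool. The log2 fold change of cycB in 10- versus single-foundress pools was then -5.77 (edgeR adjusted p = 0.0983), and that of Cdk1 -2.11 (0.378), compared with -0.76 and 0.13 without that library.

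The genes did not vary together as a set. Among the 6 with a median of at least 1 CPM, Bora and E2f8 were high in the same pools (Spearman rho = 0.72, Pearson r of log2 CPM = 0.63, n = 22), and both ran opposite to Melk (rho = -0.69 with Bora, -0.68 with E2f8) and Plk4 (-0.65 with Bora, -0.52 with E2f8). Plk4 and Melk were high in the same pools (0.48), whereas fzy and Cenp-a had absolute rho with the 4 of at most 0.36. Without the 2 libraries farthest from the median of Bora, Pearson r was 0.70 for Bora and E2f8 and -0.71 for Bora and Melk. Over all 22 libraries it was 0.63 and -0.67. Without the 2 libraries farthest from the median of Melk, r was -0.47 for Melk and E2f8, compared with -0.58 over all 22. Within groups, rho of Bora and E2f8 was 0.54 in single-foundress, 0.43 in five-foundress and 0.43 in 10-foundress pools, and the pairs of Bora with Melk, Bora with Plk4 and Melk with E2f8 were also of one sign in all 3 groups. Plk4 with Melk was 0.43 in single-foundress, -0.29 in five-foundress and 0.83 in 10-foundress pools, and Plk4 with E2f8 was -0.54, 0.18 and -0.57 in single-, five- and 10-foundress pools, so both turned sign in the five-foundress group. These values describe pools prepared with the same library kit at different depths, and rho with the total count of the library was -0.65 for Melk, -0.45 for Cenp-a, 0.42 for E2f8 and 0.38 for Bora.

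**Figure D5:**
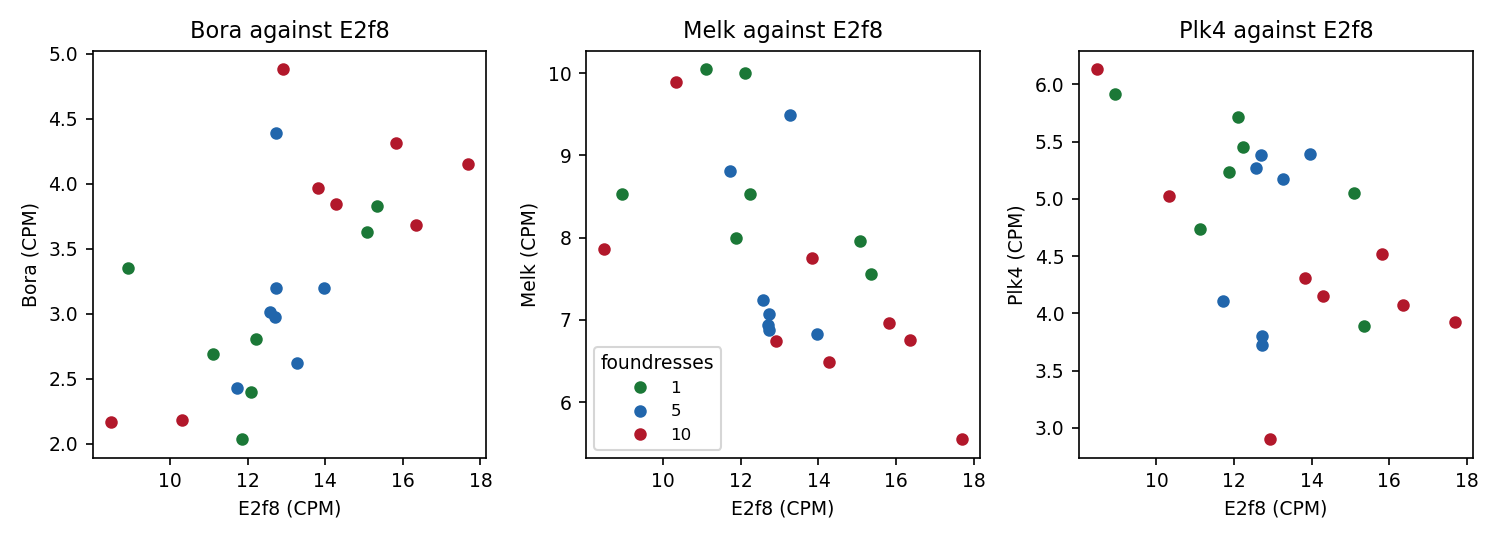
Bora, Melk and Plk4 (vertical axes, CPM) against E2f8 (horizontal axis, CPM) in the 22 libraries, coloured by foundress number. Bora is higher in pools with more E2f8 (rho = 0.72), and Melk (-0.68) and Plk4 (-0.52) are lower there, although Plk4 is not within the five-foundress pools (0.18).

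Many genes of the head had a pattern like that of E2f8 or Bora, and few one like that of fzy, Plk4 or Cenp-a. Of the 10098 other genes of at least 1 CPM, 14% had a rho of at least 0.7 with E2f8, 9.37% with Bora and 4.67% with Melk, compared with 0.525% with fzy, 0.218% with Plk4 and 0.129% with Cenp-a. Many genes also ran opposite: 12.6% had a rho of at most -0.7 with E2f8, 4.39% with Bora and 4.24% with Melk. The shares were 0.158% with fzy, 0.0198% with Plk4 and 0% with Cenp-a. The genes with a name most like E2f8 were Ints3, a subunit of the Integrator complex (rho = 0.94), Eif4g, a translation initiation factor (0.93), and Brd8, a bromodomain protein (0.93). For Bora they were Nos (0.87), Vps16a, of the endosomal tethering complexes (0.85), and kinesin-B (0.85), and for Melk CYP9AG8P (0.79), the single-strand DNA binding subunit RPA2 (0.79) and the U1 snRNP protein Snrpc (0.78). For fzy they were Org-1, a T-box transcription factor (0.78), SP68 (0.75) and hmm203054 (0.73), for Plk4 apd-3 (0.66), Dip3 (0.62) and Pmpcb (0.61), and for Cenp-a Rad54l, a recombination helicase (0.67), Dctn3, of the dynactin complex (0.54), and CYP4AB18 (0.54).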

How the data were processed

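RNA from pools of female heads was sequenced by the authors as paired-end polyA libraries. The deposited values are raw counts of reads per gene, which the authors made by trimming with cutadapt 1.8.3, aligning to the Nvit 2.1 assembly with TopHat2 2.0.14 and counting with HTSeq in union mode against NCBI Annotation Release 101, per the submitters' processing notes and the study's methods. Ambiguous reads were dropped by that mode, and whether counting used strand is not given in the sources used here, so reads from overlapping or antisense genes may be included or lost.

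Counts were fitted here in edgeR 4.0.16 (R 4.3.3, quasi-likelihood test, TMM factors, every gene with at least 1 read, 3 groups in one fit of 22 libraries) with Benjamini-Hochberg adjustment over 13599 genes and a threshold of 0.05. CPM used TMM factors over all 23 libraries. The method was tested on simulated data. Alternatives were other scaling factors, filters of low counts, DESeq2 1.42.0, limma 3.58.1, all 23 libraries, the 2 groups compared alone, a trend with foundress number, each library left out in turn, and 1 alternative added after seeing the data.

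The 8 genes and all lists were chosen with earlier results of these data known. Named besides them were, of the other list genes, those past the threshold, the smallest p and the largest ratios in replicate 2, and the 3 named symbols most like each gene. Lists were matched by symbol, since no product names come with the files, and the 14 genes of replication and repair were listed after the files were opened, leaving out an item that is not reported here. No gene length of the annotation used was at hand. No sequence is shown, because none was at hand for this build.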

Additional observations from a re-analysis of the deposited data

Results flagged for a closer look

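A library was picked out when its gap to the nearest other library took a larger share of the group's whole range than Dixon's 95% critical value. Of 32 groups of values for the 8 genes, 12 did so, in 6 genes. Chance flags about 1 in 20 groups, but the count is a description only, since the genes were chosen with their levels in replicate 2 known and the single-foundress values enter with and without that library. Single-foundress replicate 2 was the far library of its group for cycB (gap 0.986 of the range), Cdk1 (0.964), Bora (0.825), fzy (0.647) and Plk4 (0.639).

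Without replicate 2, single-foundress replicate 3 was far from the other 6 for cycB (0.726, 1.30 CPM with the next at 0.380 CPM) and single-foundress replicate 1 for fzy (0.705, 13.5 CPM with the next at 5.54 CPM). Five-foundress replicate 10 was the high library for cycB (0.899, 1.63 CPM with the next at 0.201 CPM) and five-foundress replicate 14 for Bora (0.609, 4.39 CPM with the next at 3.20 CPM). In the 10-foundress group, replicate 18 was high for cycB (0.541, 0.597 CPM with the next at 0.292 CPM), replicate 17 for fzy (0.537, 20.3 CPM with the next at 11.1 CPM) and replicate 19 for Cenp-a (0.643, 4.14 CPM with the next at 2.35 CPM).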

How the results depend on the processing

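No paired analysis was possible because the replicate numbers of the 3 groups do not overlap, and the 3 days over which the females were set up are not tied to pools in the sources used here. None of the 8 genes passed an adjusted p of 0.05 in any pairwise comparison under any alternative, and 1, cycB, passed in the overall test when all 23 libraries were fitted. With all 23 libraries the sign turned in 10- versus single-foundress pools for Cdk1 (-2.11), fzy (-0.33) and Bora (-0.19), and in five- versus single-foundress pools for Cdk1 (-2.05), fzy (-0.53) and Bora (-0.42). With limma it turned in 10- versus five-foundress pools for cycB (0.11) and fzy (-0.20). Without single-foundress replicate 3 and five-foundress replicate 10, a pair chosen after seeing the counts of cycB, its log2 fold change was 0.19 in 10- versus single- and 0.85 in 10- versus five-foundress pools. The unadjusted p of Melk in 10- versus single-foundress pools was under 0.05 also with RLE and upper quartile factors, the filter of 10 reads, DESeq2 and limma. It was not with edgeR's own filter, the earlier form of its fit or the 2 groups alone. With limma, Plk4 and Bora were under 0.05 there too, as were 1917 of all genes, compared with 433 in the main edgeR fit. In 10- versus five-foundress pools limma put Bora and 1018 of all genes under 0.05, compared with 246 genes in the main fit. cycB did not pass edgeR's own filter and has no value there. The ratio of fzy in replicate 2 to the highest other library was 1.86 on raw totals.

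Leaving out 1 library turned the sign of 17 of 528 fold changes. The unadjusted p of Melk in 10- versus single-foundress pools stayed under 0.05 in 8 of 22 such fits and not in 14. In the same comparison it was also under 0.05 for Plk4 and Bora without 10-foundress replicate 17, where 1014 of all genes were. The same held for Bora without 10-foundress replicate 24 (931 of all genes) and Cenp-a without 10-foundress replicate 19 (486). The fit of 22 libraries had 433 such genes. In five- versus single-foundress pools it held for cycB without five-foundress replicate 10 (232 of all genes, and 240 with 22 libraries). In 10- versus single-foundress pools the ranges were -1.29 to 0.19 for cycB (highest without single-foundress replicate 3), -0.0091 to 0.25 for Cdk1 and -0.020 to 0.77 for fzy (lowest without 10-foundress replicate 17). In five- versus single-foundress pools they were -1.61 to 0.87 for cycB, -0.020 to 0.15 for Bora and -0.017 to 0.11 for E2f8. In 10- versus five-foundress pools they were -1.21 to 0.85 for cycB (highest without five-foundress replicate 10), -0.14 to 0.0077 for Cdk1, -0.21 to 0.37 for fzy and -0.35 to 0.0051 for Cenp-a. cycB had a median of 4.5 reads.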

Other observations

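The genes that were far higher in single-foundress replicate 2 than elsewhere also shared their next highest libraries. Of 104 genes that had at least 1 CPM there and exceeded the highest other library by more than 20 times, cycB among them, single-foundress replicate 3 was the next highest for 45 and five-foundress replicate 10 for 39, and none of the other 20 libraries was next for more than 4. For cycB these libraries held 51 and 69 reads, with 28 in 10-foundress replicate 18 and at most 14 in the other 19. Cdk1 did not follow this order: its highest other libraries were five-foundress replicate 15 at 1.04 CPM and 10-foundress replicate 18 at 1.02 CPM, with 0.740 CPM in single-foundress replicate 3 and 0.897 CPM in five-foundress replicate 10.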
